A study of Homo sapiens with 6 samples.

Results

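C17orf49, also called BAP18, is encoded on chromosome 17 directly downstream of RNASEK, and the expression table lists a further entry, RNASEK-C17orf49, for transcripts that run from one gene into the other. These 3 genes and BPTF, a partner of the C17orf49 protein, were taken by name from the table, 4 of 15005 genes. C17orf49 was chosen for its low signal in the knockout libraries and the joint entry was looked up beside it, so their differences between knockout and control, and between rescue and knockout, are given as description with no test.

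NOMO-1 is a human acute myeloid leukemia line that carries a KMT2A-MLLT3 fusion. Total RNA was sequenced in 3 groups of 2 libraries. The labels name both a ribosome-depletion kit and a stranded mRNA library kit, and whether RNA without a poly(A) tail was kept is not stated. Rescue cells overexpressed METTL16 and carried the guide RNA against METTL16 (sgMETTL16). Knockout cells carried sgMETTL16 and an empty vector, and control cells carried a non-targeting guide (sgNS) and the same empty vector. All groups had been infected with lentivirus and kept in puromycin at 2 µg/ml for 1 to 2 weeks, and none is described as a single clone. The labels do not say that the libraries of a group came from separate cultures, so the spread between them, and each p-value below, may be technical. METTL16, which adds m6A to RNA, had a signal of 12.3 and 12.1 in rescue, 6.05 and 5.83 in knockout and 9.89 and 9.63 in control libraries. The knockout mean was 60.9% of the control mean, and RNA from an edited allele can still be counted.

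The C17orf49 protein is a subunit of the BPTF-containing chromatin remodeler NURF and is found with MLL1 and WDR5 complexes, which methylate lysine 4 of histone H3. It binds histone H3 trimethylated at that lysine, the mark that BPTF also reads through its PHD finger. RNASEK encodes a small membrane protein, ribonuclease K, which associates with the proton pump V-ATPase and is needed for endocytic uptake of several viruses. The fusion in NOMO-1 joins part of KMT2A, the gene of MLL1, to MLLT3.

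In GENCODE release 29 on GRCh38, RNASEK lies at chr17:7012417-7014532, RNASEK-C17orf49 at chr17:7012635-7017520 and C17orf49 at chr17:7014495-7017525, all on the plus strand. BPTF lies on the plus strand of the same chromosome at chr17:67825524-67984378. METTL16 is on the minus strand at chr17:2405562-2511891, and 4.501 Mb separate it from RNASEK. The transcripts that GENCODE links to RefSeq and that are used below are 1 of RNASEK with 3 exons and 810 nt, 1 of C17orf49 with 6 exons and 850 nt, and 1 of the joint entry with 8 exons and 1662 nt. GENCODE classes this joint transcript as a retained intron, and the RNASEK and C17orf49 transcripts as protein coding. All 850 bases of the C17orf49 transcript are exonic in the joint transcript, and 563 of the 810 bases of the RNASEK transcript (69.5%) are. Against these, the joint transcript has 249 exonic bases of its own, at chr17:7014533-7014781. They fill the gap between the end of the RNASEK transcript and the start of the 850-nt C17orf49 transcript, and they make up 15.0% of the joint transcript. A longer C17orf49 transcript of 996 nt begins inside RNASEK's last exon and covers these bases too, and beside it 0 bases are particular to the joint transcript. A read that lies wholly in exons of the 850-nt transcript therefore fits both entries. RSEM, the program the submitters used, divides such reads between entries by estimate.

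**Figure D1:**
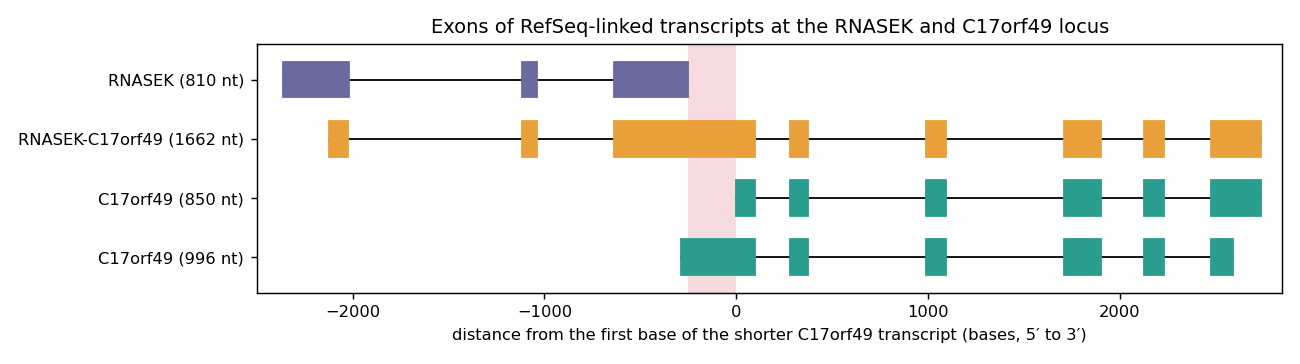
Exons (boxes) and introns (lines) of 4 transcripts of the locus, by distance in bases from the first base of the 850-nt C17orf49 transcript. The shaded 249 bases lie in an exon of the 1662-nt joint transcript and of the 996-nt C17orf49 transcript, outside the other transcripts shown.

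The sequences below are shown because they hold the start of RNASEK, its end and the start of C17orf49, between which the joint transcript runs on. The first is the RefSeq promoter window of C17orf49, chr17:7014532-7014831 on the plus strand of GRCh38.p14. Its capitals mark the 249 bases of the joint transcript that are in neither the 810-nt RNASEK nor the 850-nt C17orf49 transcript, so the sequence upstream of C17orf49's start is at the same time an exon of the joint transcript.
C17orf49 promoter: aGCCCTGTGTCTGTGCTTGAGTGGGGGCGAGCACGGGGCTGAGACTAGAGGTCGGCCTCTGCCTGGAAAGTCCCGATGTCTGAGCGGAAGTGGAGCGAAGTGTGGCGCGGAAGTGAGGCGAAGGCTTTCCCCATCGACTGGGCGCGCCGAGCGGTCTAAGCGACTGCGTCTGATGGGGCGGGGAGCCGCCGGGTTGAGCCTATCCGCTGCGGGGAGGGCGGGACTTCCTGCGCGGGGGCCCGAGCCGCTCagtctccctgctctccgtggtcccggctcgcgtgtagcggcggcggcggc
The RefSeq window of the joint entry, chr17:7012167-7012466 on the plus strand of GRCh38.p14, is set on the first base of the RNASEK transcript. It ends before the annotated start of the joint entry in GENCODE 29, and its capitals mark CACGTG.
RNASEK-C17orf49 promoter: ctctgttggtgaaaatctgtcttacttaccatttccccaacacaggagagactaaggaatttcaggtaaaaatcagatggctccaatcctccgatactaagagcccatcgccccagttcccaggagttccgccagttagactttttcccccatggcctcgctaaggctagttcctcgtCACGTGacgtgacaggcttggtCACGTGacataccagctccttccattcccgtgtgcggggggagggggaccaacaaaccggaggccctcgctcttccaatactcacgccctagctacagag
The last bases of the RNASEK transcript, chr17:7014503-7014532 on the plus strand of GRCh38, hold the polyadenylation signal AATAAA, in capitals, which begins 23 bases before the transcript's end. The joint transcript reads past it.
RNASEK 3' end window: tatctcAATAAAgagaatctgctctcttca
On either strand, CACGTG matched 2 times in the joint entry's window and 0 times in that of C17orf49, and 7.26% of 35116 RefSeq promoter windows of this length hold it. CACGTG is its own reverse complement, so 1 site read on both strands is 1 match. GGAAGT, the core of ETS factor sites, matched 0 times in the joint entry's window and 3 times in that of C17orf49, and is held by 22.8% of windows. Neither window holds TATAAA, which 11.5% of windows do. CACGTG and GGAAGT were chosen after the sequences were seen.

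Values are RSEM abundances, called signal here. They are scaled for transcript length, so genes can be compared, but the sources used here do not say whether they are TPM or FPKM. Column sums over genes lay between 590891 and 675681. The table also lists 54 ERCC spike-in RNAs, added RNAs of known sequence, whose summed signal lay between 6237 and 6320 in all 6 libraries. Differences were tested with limma on log2(signal + 1) over 12692 genes, and Benjamini-Hochberg adjusted p-values under 0.05 count as passing. Adding 1 makes the differences of low genes smaller than their ratios. Of 10 myeloid markers, 8 are listed, with MPO and CD14 not among them. The summed signal of these 8 was 725 to 730 in rescue, 1691 to 1718 in knockout and 491 to 524 in control libraries. CTSG, cathepsin G of neutrophil granules, made up most of it, with means of 487 in rescue, 1352 in knockout and 314 in control. In knockout against control 7 of the 8 rose, beside 26.3% risen and 13.6% fallen of all tested genes. ITGAM did not pass (4.81 in knockout, against 5.22 in control). In rescue against knockout 6 of the 8 fell and 0 rose, beside 16% fallen and 15.6% risen of all tested genes. Rescue against control had 2 risen and 0 fallen, beside 0.228% and 0.0552% of all tested genes. The marker sum moved with the values below in the opposite direction to C17orf49, and its part in them was not tested. Markers of other lineages were at or near the bottom: 0 of 4 erythroid markers are listed, 2 of 5 lymphoid markers with sums of 1.57 to 2.85, and 2 of 5 epithelial markers with sums of 0.744 to 1.34.

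C17orf49 was low in the knockout libraries and near its control level in the rescue libraries. Its signal was 13.6 and 15.2 in rescue, 2.68 and 4.24 in knockout and 16.7 and 14.0 in control libraries. Both knockout values lie below every other library, and the rescue and control values overlap. The knockout mean of 3.46 ± 1.11 was 22.5% of the control mean of 15.4 ± 1.93 (SD, n = 2 each), a difference of -1.89 on the log2(signal + 1) scale. The rescue mean of 14.4 ± 1.10 was 4.15 times the knockout mean (SD, n = 2), a log2 difference of 1.81. Rescue minus control, which uses the same control libraries, was -0.09 with a standard error of 0.136 and did not pass (adjusted p = 0.843, limma).

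RNASEK-C17orf49, the joint entry, was high where C17orf49 was low. Its signal was 3.93 and 5.28 in rescue, 6.59 and 6.03 in knockout and 2.54 and 3.37 in control libraries. The 3 groups do not overlap: knockout is highest, rescue lies between, and control is lowest. The knockout mean of 6.31 ± 0.396 was 2.13 times the control mean of 2.96 ± 0.584 (SD, n = 2 each), a log2 difference of 0.89. The rescue mean of 4.61 ± 0.951 (SD, n = 2) was 0.730 times the knockout mean, a log2 difference of -0.39. Rescue minus control uses the control libraries against which C17orf49 was chosen. It was 0.50 with a standard error of 0.129, a ratio of 1.56, and did not pass over all genes (unadjusted p = 0.00165, adjusted p = 0.135, limma). In that comparison 0.284% of all tested genes passed. The call depended on the libraries and the fit. The difference was 0.67 without rescue replicate 1 (adjusted p = 0.000548, limma) and 0.33 when rescue replicate 2 was left out instead (adjusted p = 0.654). Leaving out control replicate 1 gave 0.35 (adjusted p = 0.180). It passed when the knockout libraries were left out of the fit (adjusted p = 0.00411) and did not under quantile normalization (0.43, adjusted p = 0.320) or median-ratio scaling (0.44, adjusted p = 0.310).

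**Figure D2:**
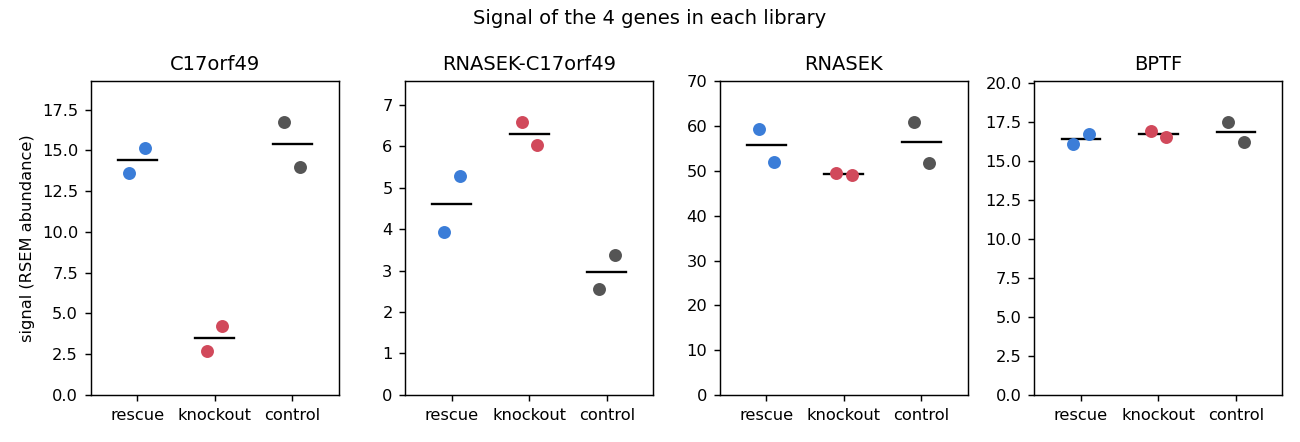
Signal (RSEM abundance) of C17orf49, RNASEK-C17orf49, RNASEK and BPTF in each library, with points for the 2 libraries of each group and a line for their mean; each panel has its own axis from 0. C17orf49 reads 2.68 and 4.24 in knockout, against 16.7 and 14.0 in control, while the joint entry reads 6.59 and 6.03 in knockout, against 2.54 and 3.37 in control.

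The 2 entries were added in each library to see how far a gain in one matched a loss in the other. The sum was 17.5 and 20.4 in rescue, 9.27 and 10.3 in knockout and 19.3 and 17.4 in control libraries. Both knockout sums lie below all other libraries, and rescue and control overlap. The knockout mean of the sum was 53.3% of the control mean. The joint entry held 22.4% and 25.8% of the sum in rescue, 71.1% and 58.7% in knockout and 13.2% and 19.4% in control, with no overlap between any of the groups. Between knockout and control means, C17orf49 was 11.9 signal units lower and the joint entry 3.35 higher, so the gain came to 28.1% of the loss. These sums and shares carry no test, since they are made from the entries that were chosen for their values.

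Signal counts transcripts, and the joint transcript is longer, so the same reads give it less signal. Weighted by transcript length (850 and 1662 nt), the sum in signal times kb was 18.1 and 21.7 in rescue, 13.2 and 13.6 in knockout and 18.5 and 17.5 in control libraries. On this scale the knockout mean was 74.7% of the control mean, and the gain of the joint entry (5.57) was 55.0% of the loss of C17orf49 (10.1). The joint entry's weight counts all 1662 nt, of which 850 are exonic in the C17orf49 transcript. RNASEK, which also shares exons with the joint entry, is not in this sum. The gain therefore does not measure reads that left C17orf49. The weighted sum was still lower in both knockout libraries than in any other library. It was added after the values were seen, and how RSEM divided the shared reads was not tested.

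**Figure D3:**
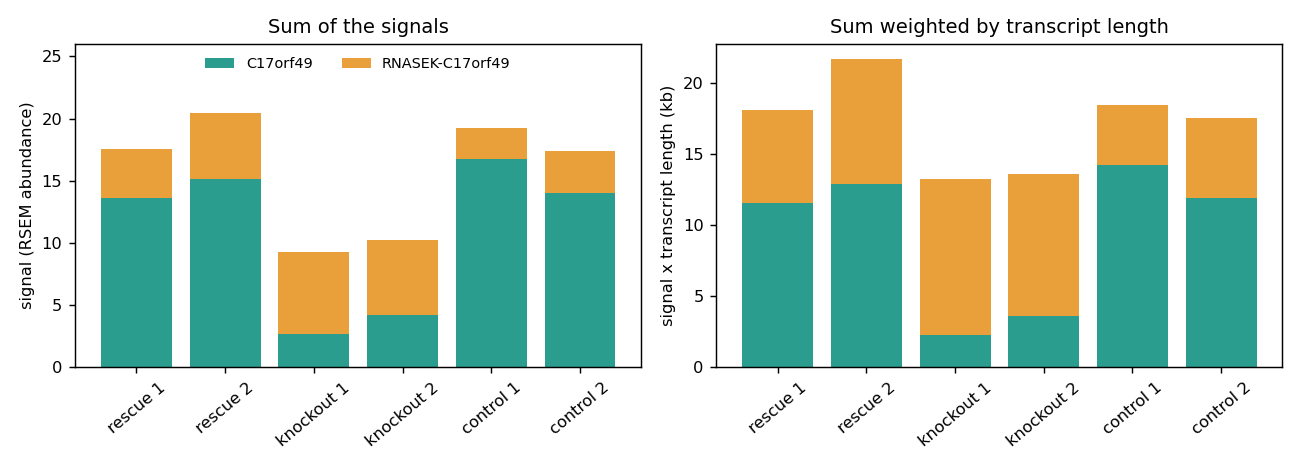
C17orf49 (lower part of each bar) and RNASEK-C17orf49 (upper part) stacked for each library, as signal (left) and as signal times transcript length in kb (right). The stacked signal is 9.27 and 10.3 in knockout libraries, against 17.4 to 20.4 in the rescue and control libraries, and the weighted sum is 13.2 and 13.6, against 17.5 to 21.7.

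The depth behind these values was estimated from the spacing of low signals of RNAs of up to 400 nt, which come in steps worth 1 read. Across libraries, 83.0% to 95.5% of them were at most 0.15 reads from a whole number, where 30% would be by chance, although the step was chosen on the same values. Each signal unit was thus worth 22.5 to 24.1 reads per kb of transcript. By that estimate C17orf49 had 269 and 287 reads in rescue, 52 and 81 in knockout and 340 and 285 in control. The joint entry had between 104 reads, in control replicate 1, and 256 reads, in knockout replicate 1. Counting error alone is then at most 13.9% for C17orf49, in knockout replicate 1, and at most 9.81% for the joint entry, in control replicate 1. The estimate covers no error from dividing shared reads.

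RNASEK, the upstream gene, was slightly lower in the knockout libraries, and the difference did not pass. Its signal was 59.4 and 52.0 in rescue, 49.6 and 49.2 in knockout and 60.9 and 51.9 in control libraries. Both knockout values lie below all others, though rescue and control replicate 2 come within 3 signal units of them. Knockout minus control was -0.18 on the log2 scale with a standard error of 0.0790, a ratio of 0.876 (unadjusted p = 0.0364, adjusted p = 0.0798, limma). Rescue minus knockout was 0.17 (adjusted p = 0.124, limma) and rescue minus control was -0.02 (adjusted p = 0.954, limma). The knockout minus control difference passed under either rescaling of the libraries, at -0.25 with quantile normalization (adjusted p = 0.0252) and -0.26 with median-ratio scaling (adjusted p = 0.0231). Leaving out control replicate 2 gave -0.30 (adjusted p = 0.0290), and leaving out control replicate 1 gave -0.07. RNASEK and the joint entry together had 63.3 and 57.3 in rescue, 56.2 and 55.2 in knockout and 63.5 and 55.2 in control. In this sum knockout and control overlap, and the knockout mean was 93.9% of the control mean, with no test. The joint entry's share of that sum was 6.22% and 9.21% in rescue, 11.7% and 10.9% in knockout and 4.01% and 6.10% in control. Both knockout shares lie above all others, while rescue replicate 1 (6.22%) and control replicate 2 (6.10%) nearly meet. With C17orf49 added as well, the sum was 76.9 and 72.5 in rescue, 58.9 and 59.4 in knockout and 80.2 and 69.2 in control. The knockout mean of this sum was 79.2% of the control mean, with no test.

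BPTF, the largest subunit of NURF, overlapped between all groups. Its signal was 16.1 and 16.7 in rescue, 16.9 and 16.5 in knockout and 17.5 and 16.2 in control libraries, and all groups overlap. Knockout minus control was -0.01 with a standard error of 0.0734 (adjusted p = 0.925, limma), rescue minus knockout -0.03 (adjusted p = 0.823) and rescue minus control -0.04 (adjusted p = 0.886). Of RNASEK and BPTF, 0 of 2 passed between knockout and control and 1 did at an unadjusted p under 0.05, while 39.9% of all tested genes passed there. Between rescue and knockout again 0 of 2 passed, and 0 at an unadjusted p under 0.05, beside 31.6% of all tested genes. In order of mean signal in control libraries, RNASEK is followed by BPTF, C17orf49 and the joint entry, and BPTF and C17orf49 overlap there. In knockout libraries the order is RNASEK, BPTF, the joint entry and C17orf49, with no overlap between neighbours in the order.

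The partners of C17orf49 in remodeling and methylation complexes showed small differences in both directions. Of 14 NURF and other ISWI remodeler genes, 12 were tested, BPTF among them. In knockout against control 2 rose and 1 fell, beside 26.3% risen and 13.6% fallen of all tested genes, and the median log2 difference was -0.03 against 0.07 for all genes. RBBP7, a histone-binding subunit, fell by 0.32, with 164 in rescue, 126 in knockout and 157 in control libraries on average. BAZ2B (0.44) and BAZ2A (0.23), bromodomain proteins of ISWI remodelers, rose. Under median-ratio scaling and under quantile normalization, 2 rose and 6 fell, while the fallen share of all tested genes was also higher, at 25.5% and 25.1%. In rescue against knockout, beside 15.6% risen and 16% fallen of all tested genes, 2 rose, RBBP7 (0.38) and the histone-fold subunit CHRAC1 (0.25), and BAZ2B fell by 0.43.

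Of 19 genes of MLL1 and WDR5 complexes, 18 were tested, and in knockout against control 2 rose and 4 fell, beside 26.3% risen and 13.6% fallen of all tested genes, with a median of 0.04. The median was 0.10 without control replicate 1 and -0.04 without control replicate 2, against 0.13 and 0.007 for all tested genes. The chromatin tether PSIP1 fell by 0.44, the ATPases RUVBL2 and RUVBL1 by 0.37 and 0.26, and the methyltransferase core subunit ASH2L by 0.30. MEN1 (0.32) and the core subunit RBBP5 (0.26) rose, while KMT2A at 0.11 and WDR5 at -0.00 did not pass. The median turned to -0.04 under quantile normalization and -0.02 under median-ratio scaling. In rescue against knockout 5 rose, PSIP1, RUVBL1, RUVBL2, ASH2L and the repressor E2F6, and RBBP5 fell, beside 15.6% risen and 16% fallen of all tested genes.

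Of 19 genes of the V-ATPase, the pump that RNASEK associates with, 17 were tested, and in knockout against control 12 rose and 0 fell. Against 26.3% risen and 13.6% fallen of all tested genes, the median was 0.24, and the 5 that did not pass lay between -0.07 (ATP6V1A) and 0.19 (ATP6V0C). The pump's membrane subunits TCIRG1 (0.75), ATP6V0D1 (0.64) and ATP6V0E1 (0.46) had the smallest p-values, followed by the accessory protein ATP6AP1 (0.36), the peripheral-domain subunit ATP6V1B2 (0.32) and ATP6AP2 (0.28). Under either rescaling 12 rose and 1 fell. Of all tested genes, 24.8% rose and 25.1% fell under quantile normalization, and 24.7% and 25.5% under median-ratio scaling. Without knockout replicate 1 the median was 0.24, against 0.06 for all tested genes. In rescue against knockout 8 fell and 0 rose, beside 16% fallen and 15.6% risen of all tested genes. The median there was -0.17, and -0.20 to -0.15 with 1 library left out. The myeloid marker sum moved in the same direction as these genes, and its part was not tested. In rescue against control, 0 genes of the 3 lists passed with limma, beside 0.228% risen and 0.0552% fallen of all tested genes, and 1, 1 and 4 did at an unadjusted p under 0.05 in the NURF, MLL1 and V-ATPase lists.

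**Figure D4:**
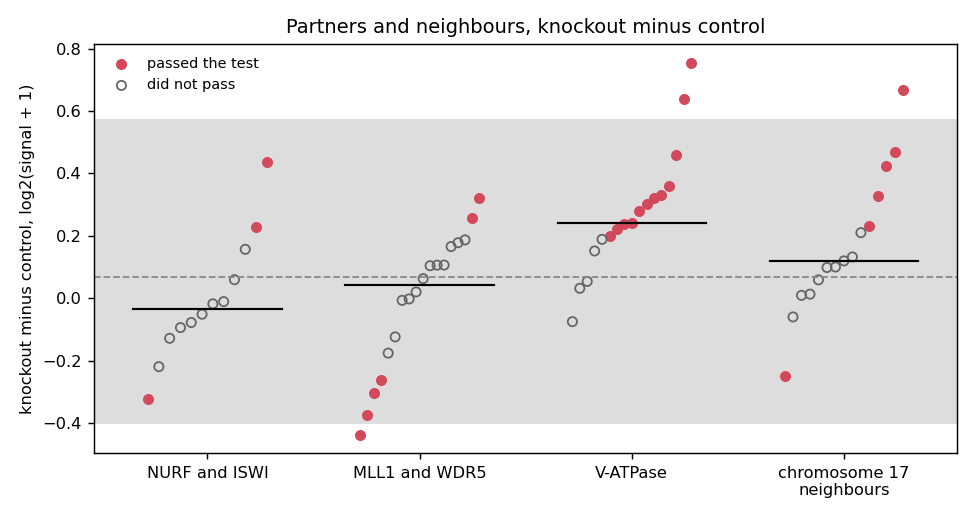
Knockout minus control difference in log2(signal + 1) for tested genes of 3 lists and of the 20 nearest listed neighbours, filled where the adjusted p was under 0.05. Lines mark each median, the dashed line the median of all genes (0.07) and the band their 5th to 95th percentiles (-0.40 to 0.57); the V-ATPase median of 0.24 is the highest.

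The tested genes around the locus differed between knockout and control in both directions. C17orf49 was chosen for its low knockout signal, so no weight rests on its difference being lower than theirs. Among the 10 nearest listed genes on each side, chr17:5499427-7259940, 15 were tested, with a median of 0.12 between knockout and control and a lowest value of -0.25. That lowest value was ACADVL, a mitochondrial acyl-CoA dehydrogenase, the 1 gene that fell. The genes XAF1 (0.67), MED31 (0.47), PHF23 (0.42), NLRP1 (0.33) and GABARAP (0.23) rose, so that 5 rose and 1 fell of 15, beside 26.3% risen and 13.6% fallen of all tested genes. The genes directly beside the locus did not pass: ALOX12 was at 0.01, its antisense gene at 0.13 and SLC16A13 at 0.21. In rescue against knockout ACADVL rose (0.26), and XAF1 and PHF23 fell by 0.60 and 0.27.

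The genes with the pattern most like that of C17orf49 were found by the root mean square distance between log2(signal + 1) values centred on their mean over the 6 libraries. They were THOC3 (0.299), a subunit of the mRNA export complex THO, NDUFS3 (0.311) of respiratory complex I, API5 (0.331), the ETS factor ETV4 (0.345) and the pseudouridine synthase PUS7 (0.349). All 5 had a smaller difference between knockout and control than C17orf49, from -1.40 for THOC3 to -1.20 for PUS7. For the joint entry the nearest were NECTIN1 (0.101), TAC4 (0.103), LOC101928557 (0.119), ABHD14A (0.131) and MIR7847 (0.134). TAC4 and LOC101928557 are low, with control means of 0.936 and 0.268, where adding 1 makes differences smaller. Their ratios of knockout to control were 2.49 and 4.58, against 2.13 for the joint entry. NECTIN1, a cell adhesion protein, had 4.35 and 5.03 in rescue, 7.20 and 6.74 in knockout and 3.03 and 3.14 in control libraries, close to the joint entry in each group.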

How the data were processed

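The members and gene lists were chosen with earlier results of these data known. Signal values per gene were deposited by the authors as 1 table of 6 libraries. The submitters' processing notes name STAR, RSEM and GRCh38. Per the labels' protocols, total RNA went through a ribosome-depletion kit and a stranded mRNA library kit and was sequenced on a HiSeq 2500. The annotation, the unit name and any use of the spike-ins for scaling are not given in the sources used here. The 54 spike-in rows were left out of tests. The 12692 of 15005 genes that reached a signal of 1 in 2 or more libraries were fitted as log2(signal + 1) with limma 3.58.1 in R 4.3.3, with a mean-variance trend and all 6 libraries, which left 3 residual and 11.0 prior degrees of freedom. The procedure was tested on simulated data. Alternatives changed the pseudocount, filter, scaling, variance model, libraries and block. Named genes were the members, list members and neighbours that passed (at most 6 per list, by p), the genes beside the locus, the 5 nearest patterns, and the 5 other joined entries with the largest difference. Symbols matched GENCODE 29 for 13769 genes and RefSeq for 14503. RefSeq promoter windows were found for C17orf49 and RNASEK-C17orf49. The labels give replicate numbers only, so no pairing was assumed. Over all tested genes, same-numbered libraries did not deviate together (r of -0.01, -0.05 and 0.10). A replicate block still changed some calls, as given below.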

Additional observations from a re-analysis of the deposited data

How the results depend on the processing

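The levels and sums of C17orf49 and the joint entry kept their values within the replicate spread under both rescalings, and the shares did under quantile normalization. Median-ratio scaling divides both entries of a library by the same factor, so it cannot change the shares. RNASEK in knockout minus control passed with a mean signal of at least 5 (-0.18, adjusted p = 0.020, limma), quantile normalization (-0.25), median-ratio scaling (-0.26) and the replicate block (-0.18, adjusted p = 0.0160). It ranged from -0.30 to -0.069 when 1 library was left out. Its rescue minus knockout difference passed with a mean of at least 5 (0.17, adjusted p = 0.0405) and the replicate block (0.17, adjusted p = 0.0353), with a leave-one-out range of 0.073 to 0.26. With 1 library left out, rescue minus control ranged from -0.13 to 0.098 for RNASEK (0.077 without rescue replicate 2), -0.21 to 0.033 for C17orf49 and 0.33 to 0.67 for the joint entry. The joint entry passed there in the fit of only these 2 groups (0.50, adjusted p = 0.00411) and with the replicate block (0.50, adjusted p = 0.00118). BPTF changed sign near 0, with ranges of -0.063 to 0.043 in knockout minus control (0.0046 without knockout replicate 2), -0.050 to 6.7e-05 in rescue minus knockout and -0.088 to 0.018 in rescue minus control.

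Of all 12692 tested genes, 6332 passed in knockout against control under quantile normalization and 6369 under median-ratio scaling, against 5058 without rescaling. In rescue against knockout 5663 and 5652 of all genes passed under these and 5033 with only the 2 groups, against 4013. The NURF and ISWI count rose as well. In knockout against control it was 8 under quantile normalization and 8 under median-ratio scaling, against 3. In rescue against knockout it was 6 and 7 under these and 6 with only the 2 groups, with a leave-one-out range of 2 to 6. Leave-one-out V-ATPase counts ran from 7 to 13 and, in rescue against knockout, from 4 to 10. Over all genes, leave-one-out counts ran from 2490 to 5032 in rescue against knockout, against 4013. In rescue against control 36 genes passed, with 23 under no filter, 226 at a mean of at least 5, 6 under median-ratio scaling, 9 without the trend, 288 with only the 2 groups, 380 with the replicate block and 8 to 293 with 1 library left out. Of genes that passed between knockout and control, 66.0% rose, against 49.7% under quantile normalization, 49.3% under median-ratio scaling, 77.1% without control replicate 1 and 51.3% without control replicate 2. In rescue against control that share was 80.6%, against 54.3% under quantile normalization, 100% of 6 genes under median-ratio scaling and 55.6% without the trend. The cause of these shifts was not tested. With 2 libraries a group, differences of the size seen for RNASEK lie at the edge of the test.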

Other observations

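The table lists 58 other joined entries named for 2 genes, and 54 were tested. In knockout against control 11 rose and 3 fell, beside 26.3% risen and 13.6% fallen of all tested genes. Among the 11, SLX1A-SULT1A3 and SLX1B-SULT1A4 have the same values (0.30, adjusted p = 0.0473, limma), so 1 signal is counted 2 times. LOC400927-CSNK1E fell by 0.96 on the log2(signal + 1) scale, as CSNK1E, a casein kinase, fell by 0.44, while LOC400927 rose (0.42). TMEM256-PLSCR3 (0.90) and GPR75-ASB3 (0.78) rose while neither partner passed. C1QTNF3-AMACR rose (0.64), as AMACR, a racemase of branched-chain fatty acid breakdown, did (0.77). STX16-NPEPL1 rose (0.63) while STX16, a syntaxin of the Golgi, fell by 0.37. In 4 of the 14 that passed, a partner that passed had the opposite sign; besides LOC400927-CSNK1E and STX16-NPEPL1 these were BLOC1S5-TXNDC5 and GIMAP1-GIMAP5, which were named after their values were seen.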
